A study of Mus musculus with 10 samples.

Results

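The genes of triglyceride storage and lipolysis were examined in tibialis anterior muscle as a set of 10, chosen by name for their roles and found by symbol in the deposited table of 13492 genes. All 10 were present and all 10 passed the filter on low values (a mean log2 CPM of at least 0), which 12223 genes passed in all. The tibialis anterior, at the front of the shin, is made mostly of fast fibres. There were 5 libraries labelled Lrtm1 KO and 5 labelled WT, which are floxed controls, all from C57BL/6 mice 6 months old and fasted for 3 h. They belong to 3 litters that each hold both genotypes: litter 108 has 2 KO and 1 control libraries, litter 110 has 1 KO and 2 control libraries, and litter 112 has 2 KO and 2 control libraries. The design text gives 4 per group where the labels give 5. As to the promoter of any Cre, the floxed part of Lrtm1 and the cells that lost it, these were not given in the sources used here.

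A muscle fibre stores fatty acids as triglyceride in lipid droplets that lie beside its mitochondria. Glycerol-3-phosphate is acylated stepwise, lipins remove the phosphate to leave diacylglycerol, and a diacylglycerol acyltransferase adds the last fatty acid. Perilipins coat the droplet and govern the access of lipases. Adipose triglyceride lipase, switched on by its co-activator, takes off the first fatty acid, and hormone-sensitive lipase then acts on the diacylglycerol. Fasting and adrenergic signals raise this breakdown and insulin restrains it.

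Lrtm1, the targeted gene, was not lower in the libraries labelled KO. It had 6.20, 6.12, 6.10, 5.97 and 6.21 adjusted log2 CPM (read counts scaled to a common library total) in KO libraries 1 to 5, against 5.61, 5.66, 5.73, 5.65 and 5.78 in control libraries 1, 3, 4, 5 and 6. Every KO library lay above every control library, a log2 difference of 0.44 (SE 0.07, limma adjusted p = 0.0344). The level goes against the label; which part of the gene was floxed is unknown, and reads outside it would not check the label. Lrtm1 also lies within Cacna2d3, on the other strand. KO below always means a library labelled KO, and every direction rests on that label. Markers of muscle fibres were as the tissue label says: all 10 listed were measured, and they summed to between 136610 and 141038 CPM in KO libraries and between 125055 and 141275 CPM in control libraries.

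No member of the set passed the test. The test was a limma fit across all 12223 genes with genotype, litter and the 3 further terms that the deposited values show to have been removed, at a Benjamini-Hochberg adjusted p under 0.05. It called 41 genes, 0.335% of those tested, and 0 of the 10 members. At an unadjusted p under 0.05 in the same limma fit, 3 members (Lpin1, Dgat1 and Plin5) and 10.1% of all genes passed. A limma fit with genotype and litter alone, which counts 6 residual degrees of freedom where 3 remain, called the 3 members Lpin1, Dgat1 and Plin5, beside 8.62% of all genes. The groups did not overlap for 4 members. Lpin1 and Plin2 lay wholly above the controls, as 8.56% of all genes did, and Dgat1 and Plin5 wholly below, as 7.63% of all genes did. The median difference of the 10 was -0.03 on the log2 scale, against -0.00 over all genes tested. SDs below leave out the variation that the authors removed and so understate the spread among libraries. SEs are limma estimates from the variation that is left, and they may be too small. For the same reason the p-values may be too small.

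**Figure D1:**
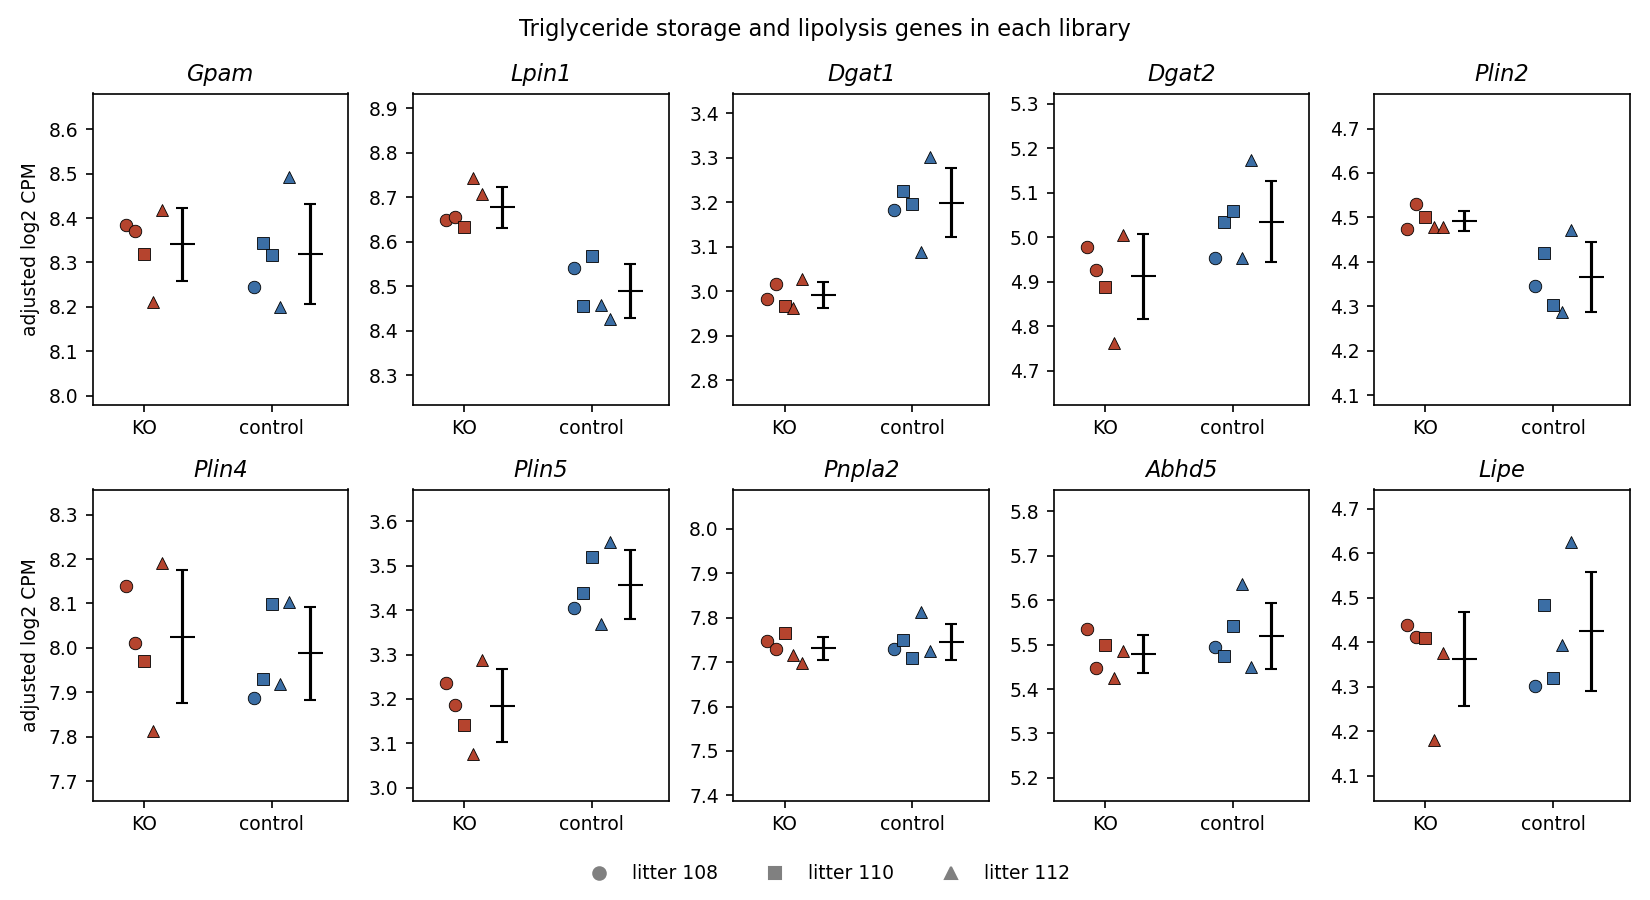
Adjusted log2 CPM of the 10 genes in each library labelled KO (left, red) and each control library (right, blue), with the litter as the symbol and the group mean with its SD (n = 5 each) as the black bar; each panel spans the same height around its own mean. The groups do not overlap for Lpin1 and Plin2 (KO above) or for Dgat1 and Plin5 (KO below), and they overlap in the other panels.

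The RefSeq promoter table (GRCm38.p6) held 8 of the 10 genes by symbol, not Dgat1 and Dgat2. A gene may have more than 1 window, and the 8 genes had 11. Windows of the 3 matched genes whose groups did not overlap are shown, because the results turn on them; of the 2 Plin5 windows only the first is printed, and the other lies at chr17:56117249-56117548. Each runs from 250 bases before the transcription start to 50 bases after it, on the strand of the gene. Capitals mark matches, on either strand, to AGGTCA, the core motif bound by nuclear receptors such as the PPARs, and to CACGTG, the E-box. Other motifs searched were GTAAACA, bound by FoxO factors, and TGACGTCA, the cAMP response element. The Lpin1 window lies at chr12:16610917-16611216 on the minus strand, the Plin2 window at chr4:86670010-86670309 on the minus strand and the first Plin5 window at chr17:56117499-56117798 on the minus strand.
Lpin1 promoter: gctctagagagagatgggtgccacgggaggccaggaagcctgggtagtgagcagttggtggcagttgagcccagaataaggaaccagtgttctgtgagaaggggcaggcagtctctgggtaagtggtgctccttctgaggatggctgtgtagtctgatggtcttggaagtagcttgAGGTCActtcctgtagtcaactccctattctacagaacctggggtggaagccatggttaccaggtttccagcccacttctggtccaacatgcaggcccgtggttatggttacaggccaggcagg
Plin2 promoter: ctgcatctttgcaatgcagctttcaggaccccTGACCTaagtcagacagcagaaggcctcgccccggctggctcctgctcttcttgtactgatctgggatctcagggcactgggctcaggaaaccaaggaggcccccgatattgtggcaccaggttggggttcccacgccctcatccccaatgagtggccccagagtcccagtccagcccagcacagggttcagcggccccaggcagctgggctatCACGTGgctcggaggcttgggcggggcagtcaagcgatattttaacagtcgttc
Plin5 promoter: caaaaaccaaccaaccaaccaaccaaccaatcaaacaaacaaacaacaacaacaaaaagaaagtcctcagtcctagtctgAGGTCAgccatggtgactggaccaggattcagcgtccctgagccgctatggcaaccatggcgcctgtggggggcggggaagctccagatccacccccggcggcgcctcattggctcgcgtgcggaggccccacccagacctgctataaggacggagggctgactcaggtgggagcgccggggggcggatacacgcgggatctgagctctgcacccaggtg

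Lpin1 had AGGTCA with its start 74 bases before the transcription start, Plin5 had it 170 bases before the start in its first window and 13 bases after the start in its second, and Plin2 had its reverse complement 218 bases before. Plin2 also had CACGTG 4 bases before the start. AGGTCA occurred in 16.3% of all 32851 promoter windows of this length, CACGTG in 7.15%, GTAAACA in 3.65% and TGACGTCA in 1.79%. Among the others, Abhd5 had the reverse complement of AGGTCA and Gpam had AGGTCA in the second of its windows. Lipe had CACGTG in its first window and the reverse complement of GTAAACA in its second, and Plin4 and Pnpla2 had none of the 4 motifs. In all, 5 of the 8 matched genes, or 6 of their 11 windows, held AGGTCA on either strand. The 16.3% counts windows, so it cannot be set beside the count of genes, and the 2 Plin5 windows overlap. This tally is a description with no test, and binding was not measured.

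Among the synthesis genes, Lpin1 lay above and Dgat1 below the controls in every library, while Gpam and Dgat2 overlapped. Lpin1 (ENSMUSG00000020593; chr12:16535669-16610966, minus strand, GENCODE M21, GRCm38), which encodes the phosphatidate phosphatase lipin 1, had 8.65, 8.66, 8.63, 8.74 and 8.71 log2 CPM in KO libraries 1 to 5. In control libraries 1, 3, 4, 5 and 6 it had 8.54, 8.46, 8.57, 8.46 and 8.43. The lowest KO library stood above the highest control library. This was 410 ± 13.2 CPM in KO libraries and 360 ± 15.3 CPM in control libraries (SD, n = 5 each), or 1.14-fold (95% interval 1.04 to 1.25). The log2 difference of 0.19 (SE 0.06) had a limma adjusted p of 0.31, and of 0.0217 with genotype and litter alone. Litter 108 gave 0.11, litter 110 gave 0.12 and litter 112 gave 0.28.

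Dgat1 (ENSMUSG00000022555; chr15:76502015-76511953, minus strand, GRCm38) encodes an acyltransferase of the last step that also re-esterifies fatty acids released from droplets. It had 2.98, 3.02, 2.97, 2.96 and 3.03 log2 CPM in KO libraries 1 to 5. In control libraries 1, 3, 4, 5 and 6 it had 3.18, 3.23, 3.20, 3.09 and 3.30. All KO libraries were below all control libraries, and they spanned a narrower range. The means were 7.95 ± 0.16 CPM in KO libraries and 9.19 ± 0.49 CPM in control libraries (SD, n = 5 each). The log2 difference was -0.21 (SE 0.09, 95% interval -0.40 to -0.01), with a limma adjusted p of 0.463, and of 0.0333 with genotype and litter alone. Litter 108 gave -0.18, litter 110 gave -0.25 and litter 112 gave -0.20.

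Dgat2 encodes the unrelated acyltransferase of the same step, which in the liver is tied to newly made fatty acids. It averaged 4.91 ± 0.09 log2 CPM in KO libraries and 5.03 ± 0.09 in control libraries (SD, n = 5 each), and the groups overlapped. Its log2 difference was -0.12 (95% interval -0.30 to 0.05; limma adjusted p = 0.655). Gpam, the mitochondrial acyltransferase of the first step, ranged from 8.21 to 8.42 log2 CPM in KO libraries and from 8.20 to 8.49 in control libraries. Its log2 difference was 0.02 (95% interval -0.14 to 0.19), with 0.13 within litter 108, -0.01 within litter 110 and -0.03 within litter 112. The log2 ratio of Dgat1 to Dgat2 within a library overlapped between groups, at -1.92 ± 0.08 in KO libraries and -1.84 ± 0.04 in control libraries (SD, n = 5 each).

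Of the droplet coat genes, Plin5 lay below and Plin2 above the controls, and Plin4 overlapped. Plin5 (ENSMUSG00000011305) encodes the perilipin of oxidative tissues that tethers droplets to mitochondria. It had 3.23, 3.19, 3.14, 3.08 and 3.29 log2 CPM in KO libraries 1 to 5, against 3.41, 3.44, 3.52, 3.37 and 3.55 in control libraries 1, 3, 4, 5 and 6. The highest KO library was below the lowest control library. The means were 3.19 ± 0.08 log2 CPM in KO libraries and 3.46 ± 0.08 in control libraries (SD, n = 5 each), which is 0.828-fold. The log2 difference of -0.27 (SE 0.09, 95% interval -0.47 to -0.07) was the largest of the 10 in size, and 7.97% of all genes tested had a difference at least that large. The limma adjusted p was 0.327, and 0.024 with genotype and litter alone. Within litter 108 the difference was -0.19, within litter 110 -0.34 and within litter 112 -0.28.

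Plin2 (ENSMUSG00000028494; chr4:86648386-86670060, minus strand, GRCm38) encodes a perilipin found in most cells that store fat, whose protein is broken down when it is not on a droplet. It had 4.47, 4.53, 4.50, 4.48 and 4.48 log2 CPM in KO libraries 1 to 5. In control libraries 1, 3, 4, 5 and 6 it had 4.35, 4.42, 4.30, 4.29 and 4.47. The groups did not overlap, but KO library 1 and control library 6 were equal to 2 decimals. The means were 22.5 ± 0.37 CPM in KO libraries and 20.6 ± 1.13 CPM in control libraries (SD, n = 5 each). The log2 difference was 0.13 (SE 0.07, 95% interval -0.03 to 0.28; limma adjusted p = 0.599, and 0.104 with genotype and litter alone). Within litter 108 it was 0.16, within litter 110 0.14 and within litter 112 0.10.

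Within a library, the log2 ratio of Plin2 to Plin5 ranged from 1.19 to 1.40 in KO libraries and from 0.78 to 0.98 in control libraries. The ratio was formed after the values were known and is given as a description. Plin4, a perilipin of adipocytes and muscle with a long repeat region, ranged from 7.81 to 8.19 log2 CPM in KO libraries and from 7.89 to 8.10 in control libraries. Its log2 difference was 0.04 (95% interval -0.16 to 0.23), with 0.19 within litter 108, -0.05 within litter 110 and -0.01 within litter 112. Plin4 and Plin5 are neighbours on chromosome 17 (GENCODE M21, GRCm38), both on the minus strand, at chr17:56100591-56109803 and chr17:56111601-56117596. The gap between them is 1797 bases and holds no annotated gene. The groups were apart for Plin5 and overlapped for Plin4.

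The 3 lipolysis genes showed no separation of the groups. Pnpla2, which encodes adipose triglyceride lipase, had 7.75, 7.73, 7.76, 7.72 and 7.70 log2 CPM in KO libraries 1 to 5, against 7.73, 7.75, 7.71, 7.81 and 7.73 in control libraries 1, 3, 4, 5 and 6. The log2 difference was -0.01, with a 95% interval from -0.13 to 0.10, the narrowest of the 10 (limma adjusted p = 0.954). Abhd5, which encodes CGI-58, the protein co-activator of that lipase, ranged from 5.43 to 5.53 log2 CPM in KO libraries and from 5.45 to 5.64 in control libraries. Its log2 difference was -0.04 (95% interval -0.18 to 0.10; limma adjusted p = 0.884). The log2 ratio of Abhd5 to Pnpla2 was -2.25 ± 0.04 in KO libraries and -2.23 ± 0.05 in control libraries (SD, n = 5 each).

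Lipe, which encodes hormone-sensitive lipase, had 4.44, 4.41, 4.41, 4.18 and 4.38 log2 CPM in KO libraries 1 to 5, against 4.30, 4.48, 4.32, 4.39 and 4.63 in control libraries 1, 3, 4, 5 and 6. KO library 4 was the lowest of the 10 libraries and control library 6 the highest, and both belong to litter 112. The log2 difference was -0.06 (95% interval -0.27 to 0.14; limma adjusted p = 0.877). Within litter 108 it was 0.12, within litter 110 0.01 and within litter 112 -0.23, so its sign differed between litters. Without KO library 4 the difference was -0.00, and without control library 6 it was 0.01.

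**Figure D2:**
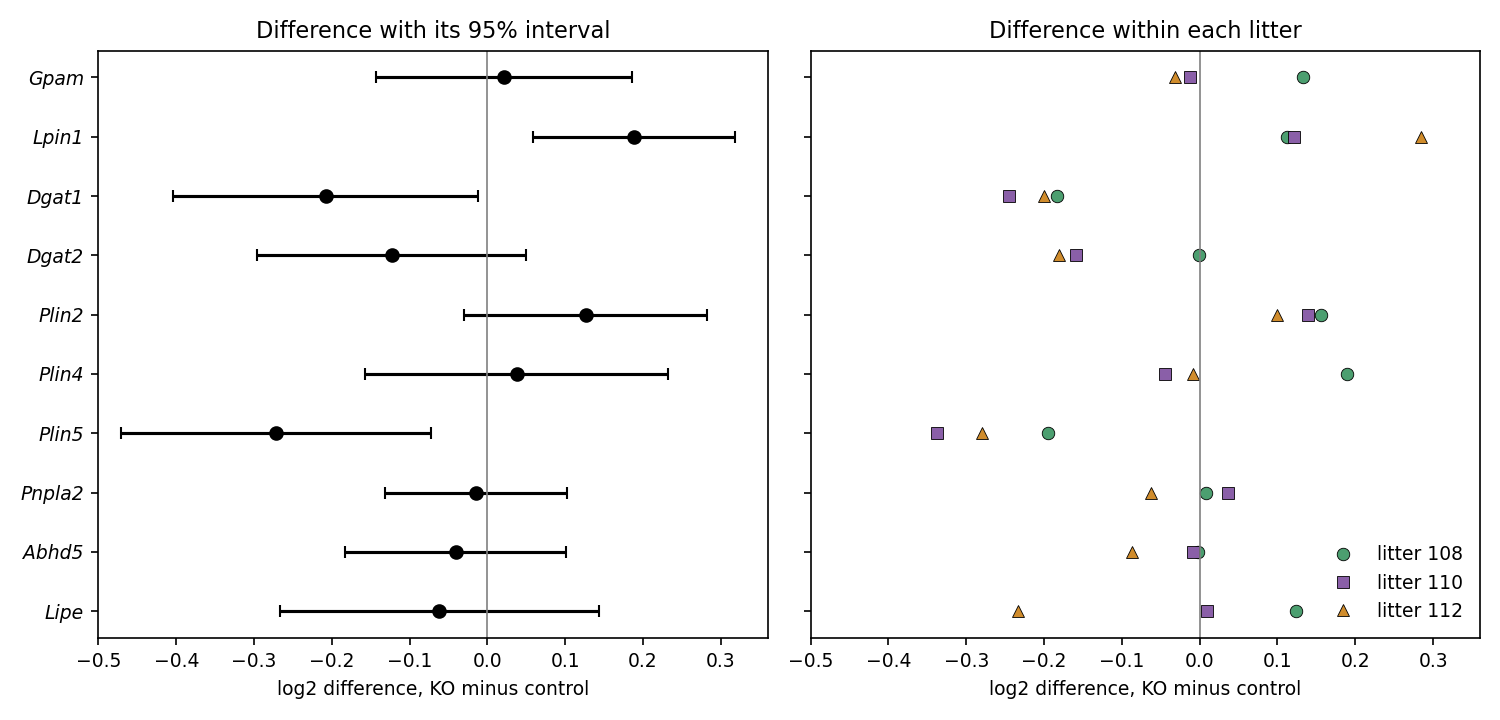
Log2 differences (KO minus control) of the 10 genes, with their 95% intervals from the fit that counts the removed terms on the left and the difference within each litter on the right. The intervals of Lpin1, Dgat1 and Plin5 leave out 0 before adjustment. Lpin1, Dgat1, Plin2 and Plin5 have 1 sign in all 3 litters, which follows from their groups not overlapping and adds no support. Dgat2 and Abhd5 also have 1 sign, and the value of both in litter 108 is -0.00. The share of all genes with 1 sign was not counted.

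Levels between genes were compared per kilobase of the longest transcript in the annotation; the muscle may use a shorter form. Pnpla2 was the highest, at 80.9 ± 1.48 CPM per kb in KO libraries and 81.8 ± 2.34 CPM per kb in control libraries (SD, n = 5 each). Lpin1 followed at 73.4 ± 2.37 CPM per kb in KO libraries and 64.4 ± 2.74 in control libraries. Gpam had 52.6 ± 2.89 in KO libraries and 51.9 ± 4.12 in control libraries, and Plin4 had 45.4 ± 4.64 in KO libraries and 44.2 ± 3.24 in control libraries. The lipase gene and the lipin gene thus stood well above the acyltransferase genes of the last step.

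Abhd5 (14.1 ± 0.42 CPM per kb in KO libraries, 14.5 ± 0.76 in control libraries) and Dgat2 (13.3 ± 0.86 in KO libraries, 14.5 ± 0.93 in control libraries) did not differ beyond their spread, and Plin2 came next at 11.9 ± 0.19 in KO libraries and 10.9 ± 0.60 in control libraries. The lowest were Lipe (5.55 ± 0.39 CPM per kb in KO libraries, 5.80 ± 0.55 in control libraries), Plin5 (4.59 ± 0.26 in KO libraries, 5.54 ± 0.30 in control libraries) and Dgat1 (4.21 ± 0.09 in KO libraries, 4.87 ± 0.26 in control libraries). Lipe and Plin5 lay within their spread of each other in the control libraries. Gpam and Plin4 also had neighbouring levels, with SDs that overlapped in the KO libraries.

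**Figure D3:**
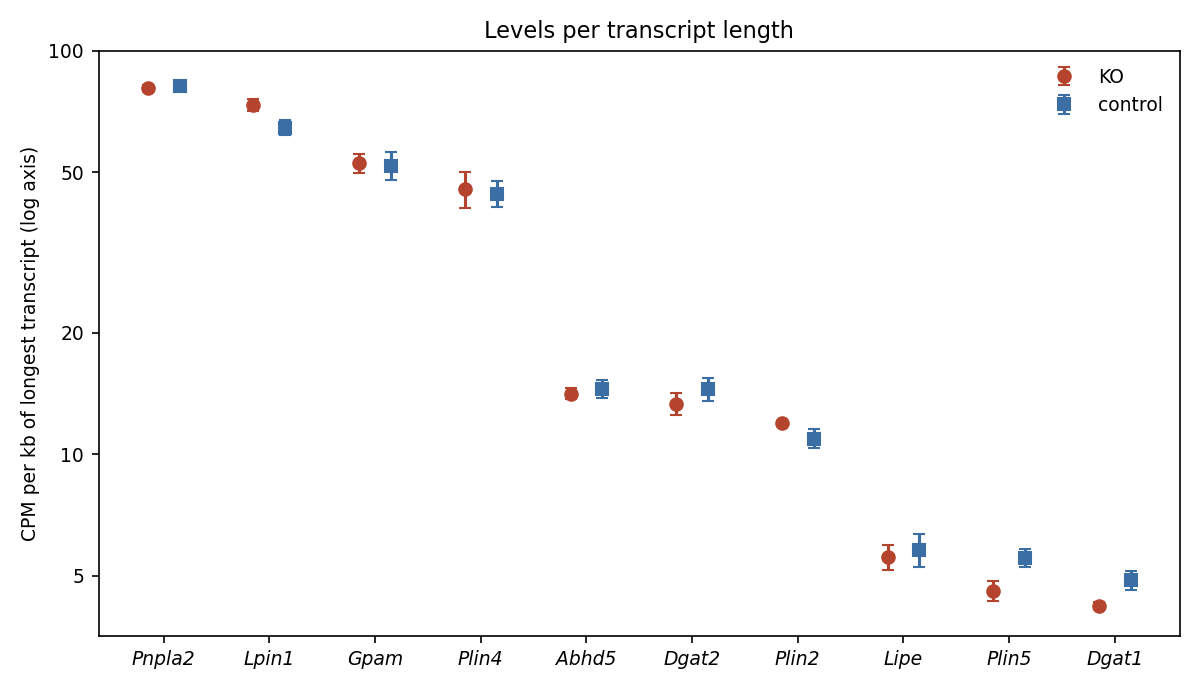
Level of each gene as CPM per kilobase of its longest annotated transcript (log axis), in KO libraries (red circles, left) and control libraries (blue squares, right), as mean and SD (n = 5 each). Pnpla2, Lpin1, Gpam and Plin4 form the upper group, between 44.2 and 81.8 CPM per kb, and Lipe, Plin5 and Dgat1 the lowest.

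Across all genes the differences ran with transcript length, and the members lie at both ends. With the tested genes in 5 length classes of about equal size, the median log2 difference was -0.04 in the shortest class, which holds Dgat1 and Plin2, and 0.05 in the longest, which holds Gpam, Lpin1 and Plin4. With the median of its length class taken off, the log2 difference was 0.14 for Lpin1, -0.17 for Dgat1, 0.17 for Plin2 and -0.24 for Plin5. The part of length in these differences was not tested further. Gpam, Abhd5 and Lipe overlap an antisense gene, and Plin4 overlaps Hdgfl2 on the other strand. The kit marks strand, but its use in counting was not given in the sources used here. Reads of a partner may thus be in the values of these 4 genes.

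The wider pathway was read from 5 gene lists, which also hold the 10 members, so the list counts repeat the member results. Cidec, Plin1, Gpd1 and Pparg are also counted among the adipocyte markers. None of the listed genes passed in the limma fit that counts the removed terms. At an unadjusted p under 0.05 in that fit, which 10.1% of all genes passed, 3 of 16 synthesis, 4 of 17 coat, 2 of 12 lipolysis, 2 of 11 hormonal and 7 of 14 regulator genes passed. Among them were Vps13c of the coat list (log2 difference 0.17), and G0s2 of the lipolysis list (-0.31) and Foxo1 of the regulators (-0.20), both lower. The groups overlapped for each of Vps13c, G0s2 and Foxo1. With genotype and litter alone, the fit that overcounts the degrees of freedom, 8.62% of all genes passed (629 higher and 425 lower of 12223), and the list counts below are to be read beside that share. In triglyceride synthesis, 1 of 16 tested genes was higher and 2 were lower in the KO libraries with genotype and litter alone, and the median log2 difference was 0.01. Beside Lpin1 and Dgat1, the gene past that threshold was Gpat3, an acyltransferase of the first step in the endoplasmic reticulum. Gpat3 averaged 1.78 ± 0.11 log2 CPM in KO libraries and 2.19 ± 0.11 in control libraries (SD, n = 5 each), a log2 difference of -0.41 (limma adjusted p = 0.31, and 0.0194 with genotype and litter alone). The other lipins, Lpin2 (0.24) and Lpin3 (0.00), had log2 differences with overlapping groups.

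In droplet coat and assembly, 0 of 17 tested genes were higher and 2 were lower with genotype and litter alone, and the median log2 difference was -0.00. They were Plin5 and Cidec, which fuses droplets in adipocytes and averaged -0.08 ± 0.31 log2 CPM in KO libraries and 1.12 ± 0.38 in control libraries (SD, n = 5 each). The log2 difference of Cidec was -1.20 (limma adjusted p = 0.121, and 0.0152 with genotype and litter alone). Its KO mean lay under the filter's minimum, so Cidec was tested only through its level in the control libraries. Of the lipolysis list, 0 of 12 were higher and 1 was lower with genotype and litter alone, and the median was 0.00. The gene was Ces1d, a carboxylesterase that hydrolyses triglyceride in liver and fat, with 4.75 ± 0.07 log2 CPM in KO libraries (4.68 to 4.81) and 5.17 ± 0.11 in control libraries (5.04 to 5.29; SD, n = 5 each). The groups were well apart, with a log2 difference of -0.41 (SE 0.08; limma adjusted p = 0.065, and 0.00668 with genotype and litter alone).

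In the hormonal control of lipolysis, 2 of 11 tested genes were higher and 0 lower with genotype and litter alone, and the median was 0.02. They were the adenylyl cyclase gene Adcy2 (log2 difference 0.24) and the cAMP phosphodiesterase gene Pde4d (0.23), which make and break down the same messenger. Their limma adjusted p, counting the removed terms, was 0.157 for Adcy2 and 0.165 for Pde4d. In this list 3 genes lay wholly above the controls and 3 wholly below, beside 8.56% and 7.63% of all genes. Above were Adcy2, Pde4d and Prkar2a (log2 difference 0.02), and below were Gnas (-0.06), Prkaca (-0.08) and Prkacb (-0.05). Other lists also held separated genes: 1 above and 3 below of 16 synthesis genes, and 1 above and 2 below of 17 coat genes. The counts were 0 and 1 of 12 lipolysis genes, 4 and 0 of 14 regulators, and 0 and 3 of 10 adipocyte markers. The synthesis genes below were Dgat1, Gpat3 and Agpat2 (log2 difference -0.26). Among transcriptional regulators of lipid storage, 5 of 14 were higher and 0 lower with genotype and litter alone, and the median was 0.14. Ppara, the nuclear receptor that drives fatty acid oxidation, had 4.59, 4.32, 4.40, 3.98 and 4.47 log2 CPM in KO libraries 1 to 5, against 3.48, 3.61, 3.72, 3.85 and 3.76 in control libraries 1, 3, 4, 5 and 6. Its log2 difference was 0.67 (SE 0.13; limma adjusted p = 0.067, and 0.0133 with genotype and litter alone). The others past the threshold of that second fit were Ppard (0.22), its partner Rxra (0.12), Mlxipl (0.22), which encodes the glucose-responsive factor ChREBP, and Klf15 (0.23). The groups overlapped for Klf15 and were apart for Ppara, Ppard, Rxra and Mlxipl. Ppargc1a, which encodes the coactivator PGC-1alpha, had a larger log2 difference of 0.81 but passed in neither limma fit (adjusted p = 0.212 with the removed terms counted and 0.0523 with genotype and litter alone), and its groups overlapped.

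Adipocytes also express several members, and several of their markers had lower values in the KO libraries. Of the 15 adipocyte markers listed, 10 were tested and 8 of them had a difference below 0, with a median of -0.41 on the log2 scale. With genotype and litter alone 4 of the 10 were lower and 0 higher, and with the removed terms counted 0 passed in limma (5 at an unadjusted p under 0.05). The log2 differences were -2.21 for Lep, -1.20 for Cidec, -0.98 for Adipoq, -0.89 for Plin1, -0.62 for Cfd, -0.19 for Thrsp, -0.09 for Car3, -0.05 for Fabp4, 0.01 for Gpd1 and 0.16 for Pparg. Lep averaged -0.60 ± 0.66 log2 CPM in KO libraries and 1.61 ± 0.66 in control libraries (SD, n = 5 each). Lep and Cidec had KO means under the filter's minimum and were tested only through their control values. Their differences are thus no support for the direction of the list, and its median includes both. Retn was measured below the minimum, and Adrb3, Cidea, Slc7a10 and Acvr1c were not analysed here.

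The 11 measured adipocyte markers summed to between 2574 and 2815 CPM in KO libraries and between 2762 and 2947 CPM in control libraries, most of it Car3, Gpd1 and Fabp4, which other cells of muscle express too. The groups overlapped in this sum. A narrower sum of Adipoq, Cfd, Plin1, Cidec, Lep and Retn was chosen after the values were seen; it leaves out Car3, Gpd1, Fabp4, Thrsp and Pparg, among them both markers with a difference above 0, so its direction is no support. It was between 9.10 and 14.1 CPM in KO libraries and 17.0 CPM or more in control libraries, with medians of 10.7 CPM in KO libraries and 18.8 CPM in control libraries. In a whole muscle, fewer cells of a type and less RNA per cell cannot be told apart, and the part of adipocyte RNA in the values of Dgat1, Plin5, Cidec and the others was not tested. Of the 10 oxidative fibre markers, 1 was higher and 0 lower with genotype and litter alone (Atp2a2, log2 difference 0.21; limma adjusted p = 0.332 with the removed terms counted), and their median was 0.01. Of the 10 muscle fibre markers none passed in either limma fit, nor at an unadjusted p under 0.05 (0 of 10; median 0.02).

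Markers of the other cell types that a muscle holds were counted in the same way. Of endothelial (7 tested), fibroblast (7), macrophage (7), Schwann cell (4), smooth muscle (4) and blood (6) markers, 0 passed in either limma fit, and 1, a blood marker, had an unadjusted p under 0.05 with the removed terms counted. Of 4 satellite cell markers, 1 was higher with genotype and litter alone (Sdc4, log2 difference 0.29; limma adjusted p = 0.165 with the removed terms counted). The median log2 differences of these lists ran from -0.17 for satellite cells to 0.03 for smooth muscle.

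**Figure D4:**
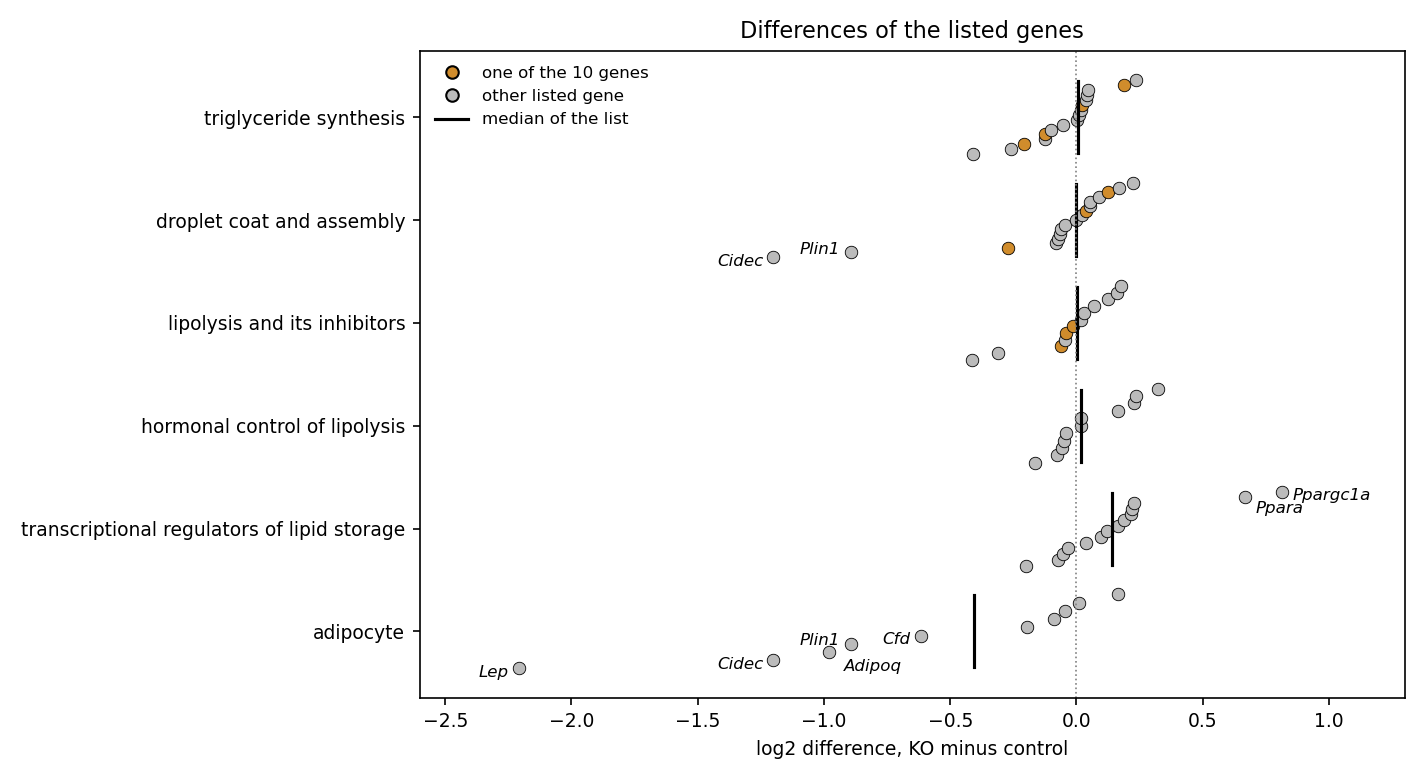
Log2 differences (KO minus control) of every tested gene of the 5 pathway lists and of the adipocyte markers, with the 10 genes of the set in orange, other genes in grey and the median of each list as a black bar; genes more than 0.6 from 0 are named. The pathway medians lie between -0.00 and 0.14, and the adipocyte median is -0.41.

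For the 3 members called with genotype and litter alone, the genes with the most similar pattern were found by Pearson correlation over the 10 libraries. Lpin1 was closest to Zfhx4 (r = 0.996), Ccnq (0.996) and Atp2a2 (0.993). Dgat1 was closest to Synpo2l (r = 0.998), Kazald1 (0.997) and Gstt2 (0.994), and Plin5 to Nubp2 (0.998), Nudt6 (0.996) and Ccdc12 (0.994). Such values are given as a description: apart from each gene's mean, the adjusted table varies only with genotype and in 3 further directions, and between 90 and 107 genes passed an r of 0.95 with each of these members.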

How the data were processed

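Per the labels' protocols, TRIzol RNA of 10 tibialis anterior samples went into oligo-dT libraries that keep strand. The submitters' processing notes name fastp, kallisto and limma; versions, genome build and annotation: not given in the sources used here. What the authors deposited is adjusted log2 CPM for 13492 genes. In CPM a library sums to between 960166 and 1016400, and depth per library is unknown. The values hold no litter effect and have lost 3 further directions among libraries; which terms these were is unknown, as is their overlap with genotype.

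Groups came from the sample titles. Genes were tested with limma 3.58.1 in R 4.3.3 (lmFit, eBayes with trend, two-sided) where the mean log2 CPM was 0 or more, with genotype, litter and the 3 removed directions as terms (3 residual degrees of freedom), and Benjamini-Hochberg adjustment over 12223 genes. No pseudocount was added. The planned fits without those directions, other filters, priors, scalings and left-out libraries are in the closing section. The script was tested on simulated data. Transcript lengths (12110 genes matched) and positions are from GENCODE M21 (GRCm38).

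All members were named, with genes of the pathway lists past the threshold in either fit and all adipocyte markers. Lpin2, Lpin3, Agpat2, Ppargc1a, Vps13c, G0s2, Foxo1, Prkar2a, Gnas, Prkaca and Prkacb were named after their values were seen. Members, lists and tests were chosen with earlier results of these data known. Whether every library is a different mouse is unstated; the p-values then reflect only variation among these samples, which may be technical.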

Additional observations from a re-analysis of the deposited data

Results flagged for a closer look

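Lipe in KO library 4 stood apart from the other KO libraries, at 4.18 log2 CPM where the nearest of them had 4.38, a gap of 0.757 of the group's range. It was the only library to stand apart in this way among the 10 genes and Lrtm1, over 22 groups of 5 checked, and chance flags about 1 in 20 such groups.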

How the results depend on the processing

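The count of members past the threshold was 0 in the main setting and stayed 0 without each of the 10 libraries in turn, with no low-value filter, with a stricter filter (mean log2 CPM 2 or more), without the variance trend, with a robust prior, with log2(CPM + 1), with median centring, with quantile normalization and with the replicate block. It was 3 with genotype and litter alone and 4 with genotype alone, where Plin2 was added; both count more residual degrees of freedom than the values hold. Over all genes, the main setting called 41, with 33 higher and 8 lower. Genotype and litter alone gave 1054 (629 and 425), genotype alone 2608 (1386 and 1222), no trend 1 (0 and 1), and quantile normalization 24 with 17 higher. With the replicate number of the titles as a replicate block, 128 genes were called (99 and 29). The numbers cannot all pair littermates, because number 4 stands for libraries of different litters. Deviations of same-numbered libraries correlated between -0.85 and 0.45, and no library correlated best with its own number. With the litter effect gone from the values, deviations from the group means cancel within each litter, which limits how littermates can correlate. These correlations thus cannot show or exclude pairing. Leaving out 1 library gave 8 to 60 genes, with 6 to 49 higher and 2 to 15 lower; the count was 8 without control library 1, 11 without KO library 3, 17 without control library 6 and 20 without control library 5, and the first and second of these also take a litter out of the comparison. The cause of these changes was not tested.

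With genotype and litter alone, leaving out libraries (added after seeing the data) called 0 to 4 members: 0 without KO library 2 or 3 or control library 1 or 3, 1 without KO library 5, and 4 without control library 6. Over all genes the same fits called between 101 (without control library 1) and 1709 (without control library 5, with 3 members), and 1105 without control library 6. Lpin1 passed in 5 of the 10, Dgat1 in 3, Plin5 in 6 and Plin2 in 1. The direction of Lpin1, Dgat1, Dgat2, Plin2, Plin5 and Abhd5 held in every setting run, while the differences of Gpam, Plin4, Pnpla2 and Lipe, all near 0, took both signs. For Lpin1, Dgat1, Plin2 and Plin5, whose groups do not overlap, leaving out a library or splitting by litter could not change the sign. Their constant direction is thus no further support.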
